A study of Mus musculus with 10 samples.

Results

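The enzymes that build, salvage and balance nucleotides, together with the folate enzymes that supply their one-carbon units, were described by 40 genes measured in sorted B-cell progenitors. The members were chosen by name for their known roles, and their Ensembl identifiers were matched to symbols of the mouse genome build GRCm38. They were 40 of the 55573 genes in the deposited count table, and all 40 were among the 12772 genes with enough counts to test. The libraries came from bone marrow B cells of mice that carried PAX5-ELN and H2B-GFP and had received doxycycline, with a time of 35 days given for every sample. PAX5-ELN is a fusion of the B-cell factor PAX5 with elastin found in acute lymphoblastic leukaemia, and H2B-GFP is a fluorescent histone that is diluted as cells divide. The 5 GFP high libraries were labelled quiescent and the 5 GFP low libraries proliferating, and both groups shared the genotype and the treatment. The promoter of the transgene, the number of mice behind a library and the action of doxycycline on the reporter are left unstated by the sources used here, and no library without PAX5-ELN was analysed.

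Purines and pyrimidines are made de novo on activated ribose or recovered from free bases and nucleosides by salvage enzymes. Ribonucleotide reductase and thymidylate synthase turn ribonucleotides into the building blocks of DNA, and folate-bound carbon from serine enters the purine ring and the methyl group of thymidine. Several of these steps are catalysed by a pair of enzymes, of which one is often tied to S phase or to the cytosol and the other to resting cells or to the mitochondrion.

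Total counts per library ranged from 11347097 to 13838769 for GFP high and from 10640894 to 14858520 for GFP low, and values below are CPM, counts scaled to library sizes that were adjusted by the TMM method. Each list of per-library values runs from library 1 to library 5. All 10 B-lineage markers looked at were measured in both groups, with a summed level of 12960 to 14600 CPM per GFP high library and 10610 to 11740 CPM per GFP low library, and 3 of them rose (Cd79a, Ebf1 and Igll1). The rest did not pass. Among these, Cd24a and Blnk had negative log2 fold changes, of -0.23 and -0.54, and the others had positive ones. The 10 cycling markers, Mki67, Top2a and Pcna among them, all fell, with a median log2 fold change of -1.13 and summed levels of 1861 to 2556 CPM per GFP high library and 4042 to 5150 CPM per GFP low library. T-cell markers summed to at most 3.89 CPM per GFP high library and 9.88 CPM per GFP low library, with Cd8a at 0 throughout. NK-cell markers summed to 187 to 327 CPM per GFP high library and 66.4 to 167 CPM per GFP low library, nearly all of it from Klrb1c, with Gzma and Eomes at 0. Stromal and endothelial markers, nearly all of it Pecam1, summed to 254 to 305 CPM per GFP high library and 142 to 178 CPM per GFP low library. Monocyte and macrophage markers summed to 95.5 to 143 CPM per GFP high library and 59.3 to 104 CPM per GFP low library, and erythroid markers to 16.6 to 46.8 CPM per GFP high library and 7.85 to 22.4 CPM per GFP low library. Csf1r, a monocyte marker, rose without overlap, at 19.2 to 30.7 CPM in GFP high and 3.53 to 8.18 CPM in GFP low libraries. It was the only 1 of the 5 tested monocyte and macrophage markers that passed. Lyz2, Mrc1, Cd68 and C1qa had positive log2 fold changes that did not pass, and Adgre1, Fcgr1 and Ms4a7 had too few counts to test. The plasma-cell markers moved in opposite directions under a summed level of 273 to 355 CPM per GFP high library and 269 to 336 CPM per GFP low library. Jchain, the joining chain of secreted antibodies, fell to 0.14 to 1.17 CPM across GFP high libraries, against 31.0 to 81.5 CPM across GFP low libraries, with a log2 fold change of -6.48 ± 0.44 (SE, adjusted p = 6.18e-06). Xbp1 rose without overlap, at 208 to 253 CPM in GFP high and 166 to 198 CPM in GFP low libraries. Sdc1 rose with overlap (adjusted p = 0.0339), and lost its call, at 0.0512 to 0.0714, without GFP high library 2, 3, 4 or 5 or GFP low library 1, 3 or 5. Prdm1 and Mzb1 did not pass, and Tnfrsf17 was at 0 in every GFP high library and at most at 0.287 CPM in GFP low. Neutrophil and megakaryocyte markers stayed under 10 CPM in both groups. The part of these cells, and of the difference in cycling cells, in the results below was not tested. In bulk libraries, fewer cells of a type and less RNA per cell cannot be told apart, and the share of cells in S phase was not measured. Both libraries numbered 3 held hardly any reads of Y-linked genes, with 9 counts in GFP high and 2 in GFP low, against 309 to 2654 in the others.

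Across the module, 25 of the 40 genes were lower in GFP high cells and 2 were higher, Tk2 and Samhd1. The other 13 did not pass the threshold, an adjusted p of 0.05 in edgeR's quasi-likelihood test over all genes tested. Among all genes tested, 15.4% were called lower and 12.0% higher. The median log2 fold change of the members, GFP high over GFP low, was -0.57, with a range of -1.52 to 0.83, against a median of 0.03 over all genes tested. The module summed to 5424 ± 407 CPM across GFP high libraries and 7792 ± 521 CPM across GFP low libraries (SD, n = 5 each). As a share of raw counts, it held 0.504% to 0.596% of a GFP high library and 0.676% to 0.807% of a GFP low library.

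The per-library values of the 2 groups did not overlap for 23 members that were lower in GFP high, against 12.6% of all genes tested, and for 1 that was higher, Tk2, against 7.92%. Within each of the 5 replicate numbers, 29 members were lower in the GFP high library, against 23.1% of all genes tested. Higher within each number were 3 members, Impdh1, Samhd1 and Tk2, against 22.9% of all genes. Libraries with the same number deviated together, and a fit with the number as a block called 28 members lower and 4 higher, where 21.0% and 20.7% of all genes were called in those directions. The block added Impdh1 and Rrm2b to the higher members and Atic, Adss and Cmpk1 to the lower ones.

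**Figure D1:**
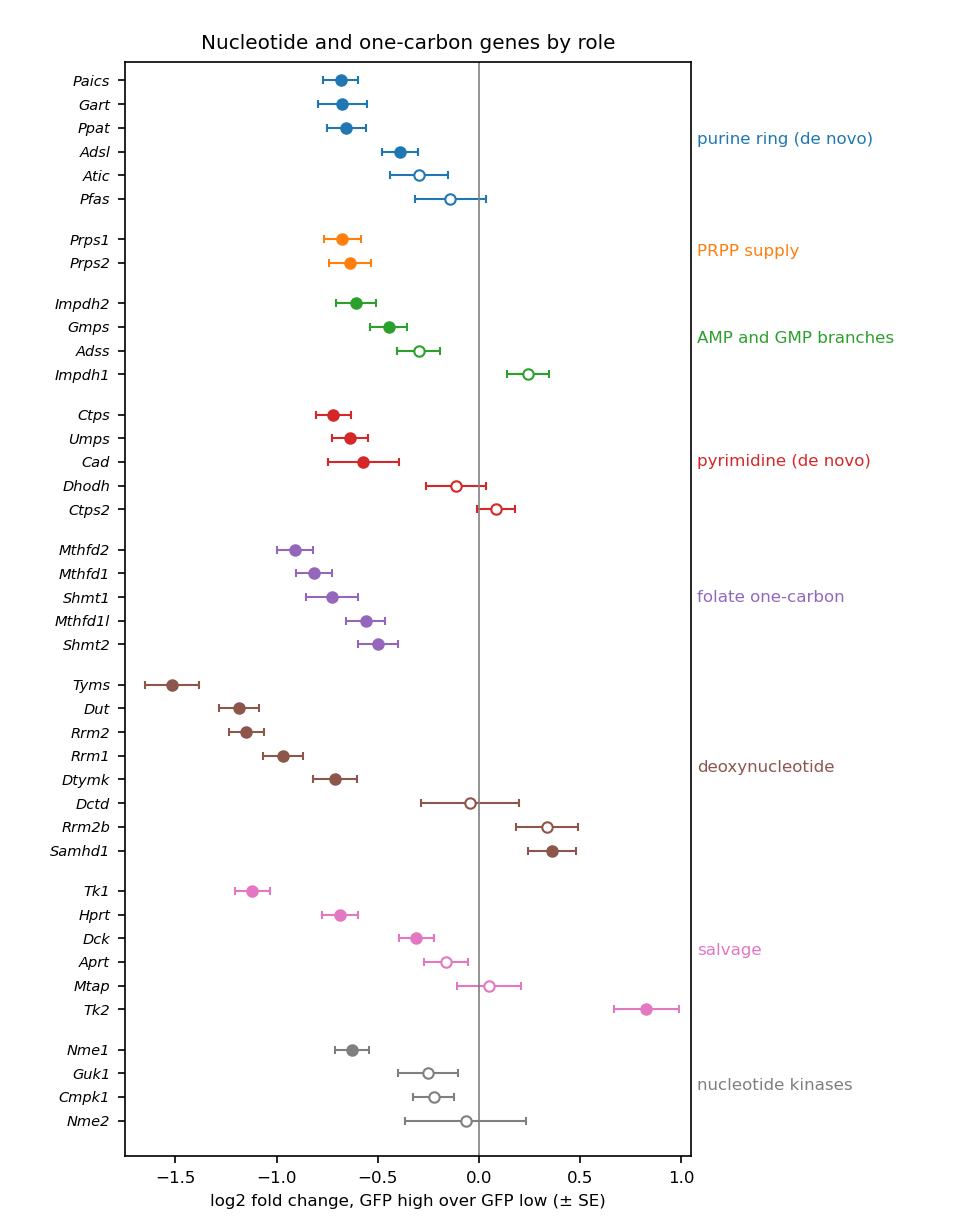
Log2 fold change of each of the 40 genes, GFP high over GFP low, with its standard error, grouped by role. Filled points passed an adjusted p of 0.05 and open points did not. The points with the lowest values are Tyms, Dut, Rrm2 and Tk1, and Tk2 lies farthest to the right at 0.83.

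The genes of deoxynucleotide supply held the 3 lowest fold changes of the module, and the 10 cycling markers fell beside them. Of 8 genes, 5 fell (Tyms, Dut, Rrm2, Rrm1 and Dtymk), Samhd1 rose, and Rrm2b and Dctd did not pass, with a median log2 fold change of -0.84. Their levels summed to 1129 ± 75.9 CPM across GFP high libraries and 2252 ± 232 CPM across GFP low libraries (SD, n = 5 each).

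Rrm2 encodes the S-phase small subunit of ribonucleotide reductase, which makes deoxynucleotides from ribonucleotides. Rrm2 had 365, 391, 355, 388 and 413 CPM in GFP high, against 686, 910.0, 849.8, 920.1 and 872 CPM in GFP low libraries. Every GFP high library lay below every GFP low library, and the log2 fold change was -1.15 ± 0.09 (SE, adjusted p = 6.95e-06). Rrm1, the large subunit that pairs with either small subunit, ranged from 288 to 389.5 CPM across GFP high libraries and from 569 to 746 CPM across GFP low libraries, also without overlap. Its log2 fold change was -0.97 ± 0.10 (SE, adjusted p = 3.53e-05).

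Tyms encodes thymidylate synthase, which methylates dUMP to dTMP with a folate-bound carbon. Tyms had 70.3, 78.9, 71.5, 65.3 and 76.4 CPM in GFP high, against 159, 262, 244, 193 and 179 CPM in GFP low libraries. The groups did not overlap, the GFP low libraries spread over a wider range than the GFP high ones, and the log2 fold change was -1.52 ± 0.13 (SE, adjusted p = 1.42e-05). Dut, the dUTPase that removes dUTP and yields the substrate of thymidylate synthase, had the next lowest fold change. Dut was measured at 125, 124, 109, 102 and 117 CPM in the GFP high libraries, against 231, 287, 304, 252 and 238 CPM in the GFP low libraries. All GFP high libraries lay below all GFP low libraries, and the log2 fold change was -1.19 ± 0.10 (SE, adjusted p = 1.24e-05). Dtymk, which phosphorylates dTMP, ranged from 85.1 to 111 CPM across GFP high libraries and from 147 to 193 CPM across GFP low libraries, with a log2 fold change of -0.71 ± 0.11 (SE, adjusted p = 0.000593).

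Samhd1 and Rrm2b had positive fold changes. Samhd1 encodes a phosphohydrolase that breaks deoxynucleoside triphosphates down and is known for keeping their pools low in resting blood cells. Levels of Samhd1 were 54, 58.6, 60.2, 48.7 and 54.1 CPM in the GFP high libraries, against 43.3, 49.3, 44.2, 31.5 and 46.3 CPM in the GFP low libraries. The ranges overlapped by 1 library of each group, since GFP high library 4 lay below GFP low library 2, and within each number the GFP high library was the higher one. The log2 fold change was 0.36 ± 0.12 (SE, adjusted p = 0.0409), and the call was lost when GFP high library 2, 3 or 5 or GFP low library 1, 3 or 4 was left out, with adjusted p-values of 0.0516 to 0.0858. With the replicate block the adjusted p of Samhd1 was 0.00432. Rrm2b encodes the p53-inducible small subunit that supplies reductase outside S phase. Rrm2b had 45.8, 41.7, 35.1, 53.8 and 52.7 CPM in GFP high, against 30.8, 44, 28.3, 41.7 and 36.6 CPM in GFP low libraries. The ranges overlapped, and within the numbers GFP high was the higher one except for number 2. The log2 fold change was 0.34 ± 0.15 (SE, adjusted p = 0.124), and with the replicate number as a block the adjusted p was 0.0201. Dctd, the dCMP deaminase, ranged from 5.75 to 10.1 CPM across GFP high libraries and from 5.23 to 11.7 CPM across GFP low libraries, with a log2 fold change of -0.04 ± 0.24 (SE, adjusted p = 0.912).

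**Figure D2:**
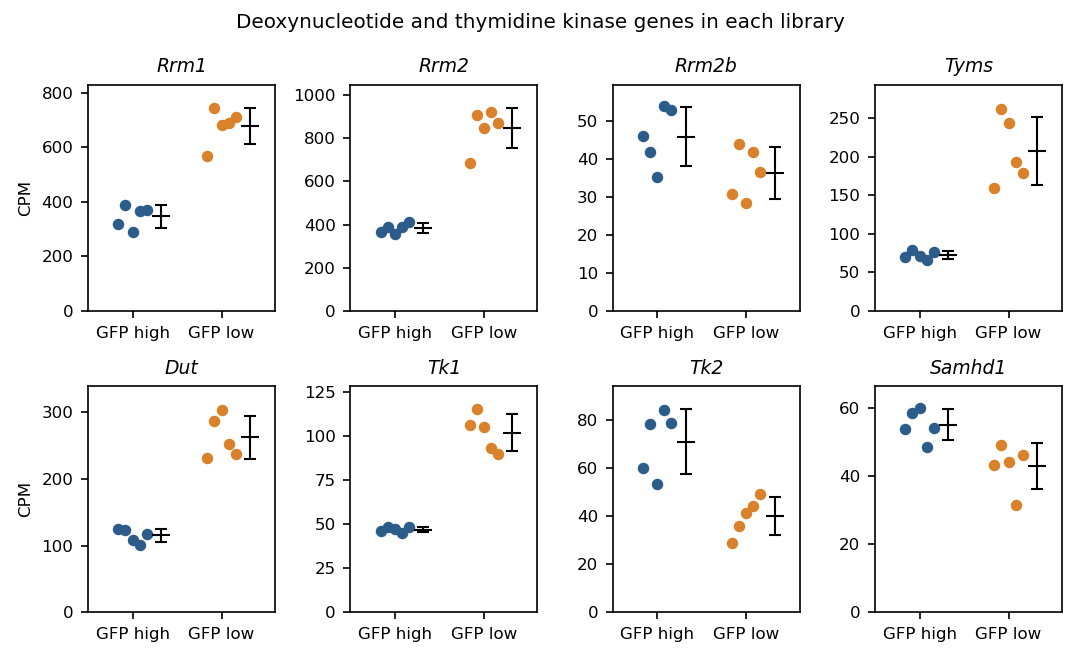
CPM of 6 genes of deoxynucleotide supply and of the salvage kinases Tk1 and Tk2 in each library, GFP high left and GFP low right, with points for libraries 1 to 5 in order and a bar for the mean and SD (n = 5 each). Rrm1, Rrm2, Tyms, Dut and Tk1 lie lower in every GFP high library, Tk2 lies higher in every one, and Rrm2b and Samhd1 overlap.

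The salvage genes moved in both directions. Of 6 genes, 3 fell (Tk1, Hprt and Dck), Tk2 rose, and Aprt and Mtap did not pass, with a median of -0.24. Tk1 encodes the cytosolic thymidine kinase, which is known to be degraded as cells leave mitosis. Tk1 was measured at 46.3, 48.5, 47, 44.8 and 48.1 CPM in the GFP high libraries, against 106, 115, 105, 93.2 and 89.7 CPM in the GFP low libraries. The 5 GFP high values lay within a few CPM of each other and all below the GFP low values, with a log2 fold change of -1.12 ± 0.09 (SE, adjusted p = 7.32e-06). Tk2 encodes the mitochondrial thymidine kinase, which supplies precursors for mitochondrial DNA. Levels of Tk2 were 60.2, 78.5, 53.5, 84.3 and 79 CPM in the GFP high libraries, against 28.8, 36.1, 41.5, 44.3 and 49.5 CPM in the GFP low libraries. Here the GFP high libraries were all above the GFP low ones, and the log2 fold change was 0.83 ± 0.16 (SE, adjusted p = 0.00253). The summed level of the salvage genes was 1295 ± 144 CPM across GFP high libraries and 1645 ± 118 CPM across GFP low libraries (SD, n = 5 each).

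Hprt, which returns hypoxanthine and guanine to the nucleotide pool, was also lower. Hprt had 311, 300.2, 289.6, 332 and 376 CPM in GFP high, against 459, 517, 547, 556 and 509 CPM in GFP low libraries. The groups did not overlap, and the log2 fold change was -0.69 ± 0.09 (SE, adjusted p = 0.00015). Dck, the deoxycytidine kinase that lymphocytes depend on, ranged from 513 to 630.1 CPM across GFP high libraries and from 595 to 786 CPM across GFP low libraries. Its log2 fold change was -0.31 ± 0.09 (SE, adjusted p = 0.0188), and leaving out GFP high library 1, 2 or 3 or GFP low library 4 or 5 raised the adjusted p to between 0.0511 and 0.0638. With the replicate block the adjusted p of Dck was 0.000488. Aprt, which salvages adenine, ranged from 30.5 to 33.6 CPM across GFP high libraries and from 29.5 to 39.8 CPM across GFP low libraries, with a log2 fold change of -0.16 ± 0.11 (SE, adjusted p = 0.297). Mtap, which recovers adenine from methylthioadenosine, ranged from 192 to 349 CPM across GFP high libraries and from 203 to 287 CPM across GFP low libraries, with a log2 fold change of 0.05 ± 0.16 (SE, adjusted p = 0.841). The highest Mtap value was that of GFP high library 5, and the groups overlapped.

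Promoter sequences are shown for Rrm1, Rrm2, Tyms, Tk1 and Mthfd2, which fell, beside Tk2, which rose. These genes were picked by hand, and Dut, with the next lowest fold change after Tyms, is not shown. Each line gives 120 bases before and 30 after the start of transcription, 5′ to 3′ on the gene's strand, from RefSeq on GRCm38.p6. Capitals mark matches, on either strand, to the E-box CACGTG, the E2F motifs TTTCCCGC, TTTGGCGC, TTTCGCGC and TTTGCCGC, the CHR element TTTGAA, the NF-Y box CCAAT and the GC box GGGCGG.
Rrm1 (chr7:102441575-102441724, plus strand): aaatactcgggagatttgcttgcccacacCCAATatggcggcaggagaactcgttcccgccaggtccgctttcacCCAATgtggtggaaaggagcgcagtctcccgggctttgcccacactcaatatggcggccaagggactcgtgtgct
Rrm2 (chr12:24708134-24708283, plus strand): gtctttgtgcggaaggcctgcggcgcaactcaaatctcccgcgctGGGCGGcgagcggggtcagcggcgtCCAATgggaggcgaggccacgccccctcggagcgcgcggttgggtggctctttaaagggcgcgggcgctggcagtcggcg
Tyms (chr5:30073596-30073745, minus strand): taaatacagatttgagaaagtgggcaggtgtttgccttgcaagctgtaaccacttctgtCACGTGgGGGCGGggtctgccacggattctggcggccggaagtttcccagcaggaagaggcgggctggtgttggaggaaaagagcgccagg
Tk1 (chr11:117825985-117826134, minus strand): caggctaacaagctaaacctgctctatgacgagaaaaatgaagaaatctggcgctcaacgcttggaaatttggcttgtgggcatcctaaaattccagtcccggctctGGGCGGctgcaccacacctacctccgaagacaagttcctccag
Tk2 (chr8:104248529-104248678, minus strand): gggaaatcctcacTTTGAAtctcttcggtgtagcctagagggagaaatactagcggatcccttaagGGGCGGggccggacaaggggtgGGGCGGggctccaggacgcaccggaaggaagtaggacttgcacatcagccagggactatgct
Mthfd2 (chr6:83317575-83317724, minus strand): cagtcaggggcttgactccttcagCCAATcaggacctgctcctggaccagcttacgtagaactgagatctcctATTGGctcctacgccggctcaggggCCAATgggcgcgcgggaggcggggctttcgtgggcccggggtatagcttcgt
Within these stretches Rrm1 had CCAAT matches alone, Rrm2 had a CCAAT and a GC box match, Tyms an E-box next to a GC box, Tk1 a GC box, and Mthfd2 CCAAT matches. The Tk2 stretch held a CHR element match and GC box matches. In the longer windows described below, CHR matches also occurred for Dck, Prps2 and Umps, which fell, and for Guk1, which did not pass. No E2F motif as spelled here lay within the printed stretches.

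RefSeq promoter windows of 300 bases, 250 before and 50 after a start, were found for 37 of the 40 members, which had 46 windows. Pfas, Dhodh and Rrm2b had none in the table. The GC box was found in 69.6% of the members' windows and in 35.7% of all 32851 windows, and the E-box in 15.2% of the members' and 7.15% of all windows. The NF-Y box was found in 34.8% of the members' and 37.4% of all windows, the CHR element in 10.9% and 17.9%, and the E2F motifs in 4.35% and 2.26%. Both strands were searched, and a base could belong to more than 1 motif. These shares describe letters in a window and were not tested, and several members had more than 1 window. The set of all windows was not limited to genes with enough counts to test, whereas all 40 members had enough. The sets therefore also differ in expression, and the shares among tested genes alone were not taken.

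All 5 folate enzymes fell, with a median log2 fold change of -0.73. Their summed level was 349 ± 30.7 CPM across GFP high libraries and 555 ± 46.7 CPM across GFP low libraries (SD, n = 5 each). Mthfd2, the mitochondrial methylenetetrahydrofolate dehydrogenase that is abundant in embryonic and tumour cells, had the lowest fold change. Mthfd2 was measured at 35.9, 33.6, 35.2, 39.2 and 30.5 CPM in the GFP high libraries, against 61.1, 68.9, 65.3, 68.3 and 63.8 CPM in the GFP low libraries. No GFP high library reached the lowest GFP low library, and the log2 fold change was -0.91 ± 0.09 (SE, adjusted p = 2.59e-05). Mthfd1l, which completes the mitochondrial route to formate, followed the same order. Mthfd1l had 58.2, 57.1, 45.7, 54.7 and 64.8 CPM in GFP high, against 78.4, 76.6, 85.8, 87.6 and 84.9 CPM in GFP low libraries. These ranges did not overlap either, and the log2 fold change was -0.56 ± 0.10 (SE, adjusted p = 0.00115).

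Mthfd1 encodes the cytosolic enzyme that converts formate to the folates used in purine and thymidylate synthesis. Mthfd1 had 80.9, 76.6, 76.4, 77.1 and 89.3 CPM in GFP high, against 119.8, 134, 153, 141 and 157 CPM in GFP low libraries. Again the groups were apart in all libraries, with a log2 fold change of -0.81 ± 0.09 (SE, adjusted p = 5.85e-05). Shmt1 and Shmt2 encode the cytosolic and mitochondrial serine hydroxymethyltransferases, which move a carbon from serine to folate. Shmt1 was measured at 65.5, 60.3, 47.4, 65.2 and 76.7 CPM in the GFP high libraries, against 90.2, 94.4, 107, 104 and 126 CPM in the GFP low libraries. Levels of Shmt2 were 128, 99.3, 106, 116 and 125 CPM in the GFP high libraries, against 155, 136, 172, 169 and 179.7 CPM in the GFP low libraries. Both genes were lower in each GFP high library than in any GFP low library. Shmt1 had a log2 fold change of -0.73 ± 0.13 (SE, adjusted p = 0.00137), and Shmt2 had a log2 fold change of -0.50 ± 0.10 (SE, adjusted p = 0.00296).

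**Figure D3:**
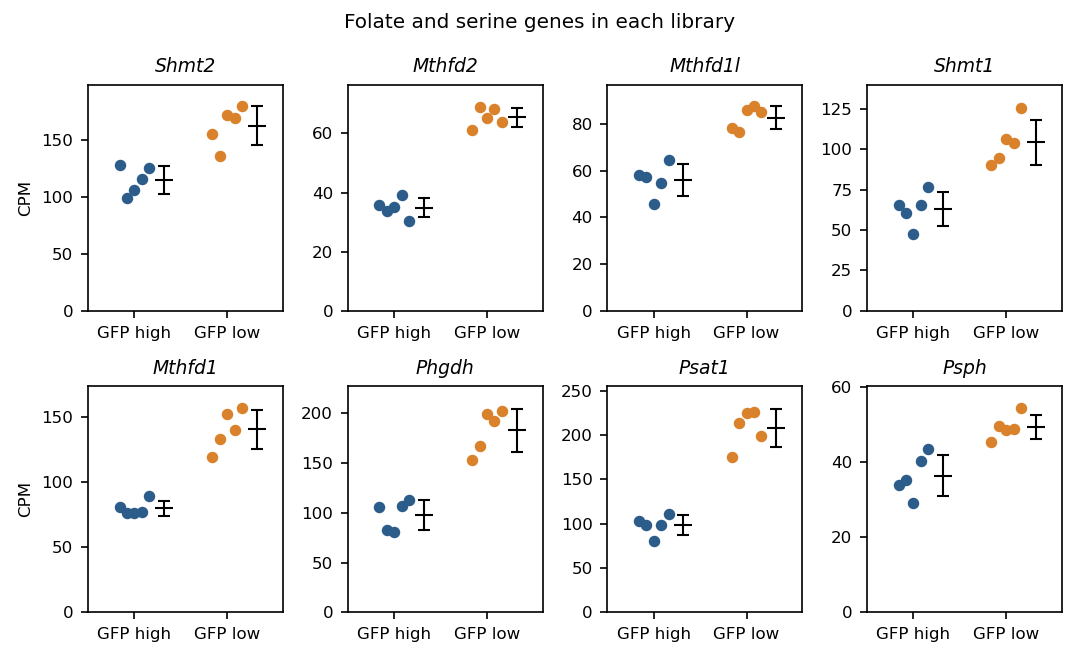
CPM of 8 folate and serine genes in each library, GFP high left and GFP low right, with points for libraries 1 to 5 in order and a bar for the mean and SD (n = 5 each). In all 8 panels the GFP high points lie below the GFP low points.

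In the purine ring pathway, 4 of 6 genes fell (Paics, Ppat, Gart and Adsl) and Atic and Pfas did not pass, with a median of -0.52. The summed level was 601 ± 59.5 CPM across GFP high libraries and 913 ± 52.8 CPM across GFP low libraries (SD, n = 5 each). Ppat encodes the amidotransferase that commits ribose to the purine ring. Ppat had 67.8, 64.7, 62.4, 67.9 and 79.6 CPM in GFP high, against 107, 99.3, 94.5, 113 and 124 CPM in GFP low libraries. The groups did not overlap, and the log2 fold change was -0.65 ± 0.10 (SE, adjusted p = 0.000423). Paics, which carries 2 consecutive ring steps, is the neighbour of Ppat on chr5 and is read in the opposite direction. Paics was measured at 303, 291, 250.1, 293 and 315 CPM in the GFP high libraries, against 408, 500.0, 504, 448 and 474 CPM in the GFP low libraries. All GFP high libraries were lower, and the log2 fold change was -0.68 ± 0.09 (SE, adjusted p = 0.000133). The annotated exons of both genes overlap by 272 bases, so that reads there cannot be assigned without strand.

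Gart, which carries 3 of the ring steps, was lower as well. Levels of Gart were 95, 92.1, 74.4, 96.2 and 114 CPM in the GFP high libraries, against 122, 147, 148, 174 and 163 CPM in the GFP low libraries. The highest GFP high library was below the lowest GFP low library, and the log2 fold change was -0.68 ± 0.12 (SE, adjusted p = 0.00144). Adsl, adenylosuccinate lyase, ranged from 87.9 to 111 CPM across GFP high libraries and from 116 to 142 CPM across GFP low libraries, with a log2 fold change of -0.39 ± 0.09 (SE, adjusted p = 0.00649); in libraries 4 and 5 alone it was -0.20 with an adjusted p of 0.19. Atic, which closes the ring, ranged from 27.7 to 45.2 CPM across GFP high libraries and from 38.4 to 47.5 CPM across GFP low libraries. Its log2 fold change was -0.29 ± 0.14 (SE, adjusted p = 0.145), and with the replicate block the adjusted p was 0.0249. Pfas, the other glutamine-using step, ranged from 11.7 to 19.97 CPM across GFP high libraries and from 13.7 to 20.7 CPM across GFP low libraries, with a log2 fold change of -0.14 ± 0.18 (SE, adjusted p = 0.595).

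Prps1 and Prps2, the synthetases of the activated ribose that feeds purine, pyrimidine and salvage steps alike, both fell. Prps1 had 106, 103, 94.7, 87.4 and 91.5 CPM in GFP high, against 147, 175, 163, 132 and 155 CPM in GFP low libraries. Prps2 was measured at 122, 122, 104, 142 and 137 CPM in the GFP high libraries, against 164, 210.0, 190.5, 203 and 208 CPM in the GFP low libraries. Neither gene had overlapping groups, although the numbers 4 and 5 stood lower for Prps1 and higher for Prps2 within GFP high. Prps1 had a log2 fold change of -0.67 ± 0.09 (SE, adjusted p = 0.000247), and Prps2 had a log2 fold change of -0.64 ± 0.10 (SE, adjusted p = 0.000708).

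At the branch to AMP and GMP, Impdh2 and Gmps fell and Adss and Impdh1 did not pass. Summed over the 4 genes, the groups overlapped, at 1054 ± 90.0 CPM across GFP high libraries and 1101 ± 70.2 CPM across GFP low libraries (SD, n = 5 each). Impdh2 encodes the IMP dehydrogenase that is induced in proliferating lymphocytes. Impdh2 had 108, 95.1, 91.8, 79.4 and 112 CPM in GFP high, against 150.4, 150.3, 154, 133 and 153 CPM in GFP low libraries. GFP low library 4 lay below the other GFP low libraries and still above all GFP high libraries, and the log2 fold change was -0.61 ± 0.10 (SE, adjusted p = 0.0008). Impdh1 encodes the form that many resting tissues express. Impdh1 had 552, 598, 599.7, 749 and 671 CPM in GFP high, against 477, 523, 467, 614 and 597 CPM in GFP low libraries. The ranges overlapped, and libraries 4 and 5 were the highest within each group, while within each number GFP high was the higher one. The log2 fold change was 0.24 ± 0.10 (SE, adjusted p = 0.105), and with the replicate block the adjusted p was 0.00227.

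Gmps, which aminates XMP to GMP, had separate groups. Gmps was measured at 135, 162, 157, 146 and 152 CPM in the GFP high libraries, against 197, 229, 228, 182 and 188 CPM in the GFP low libraries. The log2 fold change was -0.45 ± 0.09 (SE, adjusted p = 0.00318). Adss opens the branch to AMP. Levels of Adss were 156, 173, 150.4, 192 and 192 CPM in the GFP high libraries, against 172, 209, 220.4, 241 and 217 CPM in the GFP low libraries. The groups overlapped, and the log2 fold change was -0.30 ± 0.11 (SE, adjusted p = 0.0527), and with the replicate block the adjusted p was 0.00404.

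Of the 5 pyrimidine genes, 3 fell (Ctps, Umps and Cad), and Dhodh and Ctps2 did not pass, with a median of -0.57. Their summed level was 384 ± 23.1 CPM across GFP high libraries and 493 ± 10.9 CPM across GFP low libraries (SD, n = 5 each). Cad encodes the large enzyme that carries the opening steps of pyrimidine synthesis. Cad had 47.8, 52.6, 60.8, 79.4 and 77.2 CPM in GFP high, against 78.2, 82.4, 78.8, 103 and 129.8 CPM in GFP low libraries. In both groups libraries 4 and 5 were the highest and the ranges overlapped, while every number had the lower value in GFP high. The log2 fold change was -0.57 ± 0.18 (SE, adjusted p = 0.0303), and without GFP high library 1, 2 or 3 or GFP low library 4 or 5 the adjusted p lay between 0.0619 and 0.0823. With the replicate block the adjusted p of Cad was 0.000117. Dhodh, the mitochondrial dehydrogenase of the pathway, ranged from 22.3 to 41.3 CPM across GFP high libraries and from 28.6 to 35.4 CPM across GFP low libraries, with a log2 fold change of -0.11 ± 0.15 (SE, adjusted p = 0.62).

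Umps closes the pathway to UMP. Umps was measured at 95, 106, 89.9, 82.8 and 86.1 CPM in the GFP high libraries, against 139.8, 155, 154, 133 and 132 CPM in the GFP low libraries. These groups were apart, and the log2 fold change was -0.64 ± 0.09 (SE, adjusted p = 0.000278). Ctps and Ctps2 make CTP from UTP, and Ctps is the form that proliferating lymphocytes are known to need. Levels of Ctps were 44.9, 50.6, 53.5, 56.2 and 53 CPM in the GFP high libraries, against 79.5, 76.9, 89.8, 90.8 and 88.1 CPM in the GFP low libraries. Ctps2 had 139, 128, 142, 148 and 173 CPM in GFP high, against 151, 137, 130.1, 144 and 126 CPM in GFP low libraries. Ctps was lower in every GFP high library, with a log2 fold change of -0.72 ± 0.09 (SE, adjusted p = 0.000107). Ctps2 overlapped between the groups, with a log2 fold change of 0.09 ± 0.09 (SE, adjusted p = 0.531).

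Of the 4 nucleotide kinases, Nme1 fell and Cmpk1, Guk1 and Nme2 did not pass, with a median of -0.24. Nme1 encodes a subunit of nucleoside diphosphate kinase. Nme1 was measured at 75.6, 68.8, 68.7, 75.1 and 83.5 CPM in the GFP high libraries, against 105, 106, 119, 118 and 125 CPM in the GFP low libraries. The groups did not overlap, and the log2 fold change was -0.63 ± 0.08 (SE, adjusted p = 0.00023). Cmpk1 encodes the UMP and CMP kinase. Cmpk1 had 258, 319, 258, 314 and 299 CPM in GFP high, against 276, 361, 314, 374 and 365 CPM in GFP low libraries. The groups overlapped, while within each number GFP high was the lower one. Its log2 fold change was -0.22 ± 0.10 (SE, adjusted p = 0.127), and with the replicate block the adjusted p was 0.00693. Guk1 encodes the GMP kinase. Guk1 had 21.3, 20.7, 22.3, 32 and 29.95 CPM in GFP high, against 26.2, 28.8, 28.5, 32.8 and 33.6 CPM in GFP low libraries. Its groups overlapped, with a log2 fold change of -0.25 ± 0.15 (SE, adjusted p = 0.233).

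Between enzymes that share a step, the balance differed between the 2 groups most for Tk1/Tk2 and Rrm2/Rrm2b, and Prps1/Prps2 was the pair that did not pass the test. The log2 ratio of both genes' CPM was taken within each library for 7 pairs and compared by a two-sided exact permutation test over the libraries, adjusted over the 7 pairs. The smallest p this test can give is 0.00794. The CPM were not scaled to transcript length, so the sign of a ratio does not rank the levels of both genes. The Tk1/Tk2 ratio was -0.38, -0.69, -0.19, -0.91 and -0.71 in the GFP high libraries, against 1.88, 1.67, 1.34, 1.07 and 0.86 in the GFP low libraries. All 5 GFP high ratios were negative and all 5 GFP low ratios positive, and the difference of the mean log2 ratios, GFP high minus GFP low, was -1.94 (exact permutation test, p = 0.00794, adjusted p = 0.0139). Tk1 and Tk2 had each separated the groups, in opposite directions, so their ratios had to separate as well. The p-value of this pair was thereby fixed at its smallest and adds nothing to the results of the single genes. The Rrm2/Rrm2b ratio was 2.99, 3.23, 3.33, 2.85 and 2.97 in the GFP high libraries, against 4.47, 4.37, 4.90, 4.46 and 4.57 in the GFP low libraries. These groups were also apart, and the difference of the mean log2 ratios, GFP high minus GFP low, was -1.48 (exact permutation test, p = 0.00794, adjusted p = 0.0139). The ranges of Rrm2 and Rrm2b left no room for these ratios to overlap, so this p-value was fixed at its smallest as well.

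Impdh2/Impdh1 had a ratio of -2.36, -2.65, -2.71, -3.24 and -2.58 in the GFP high libraries, against -1.66, -1.80, -1.60, -2.21 and -1.96 in the GFP low libraries. The difference of the mean log2 ratios, GFP high minus GFP low, was -0.86 (exact permutation test, p = 0.00794, adjusted p = 0.0139), with separate groups. Ctps/Ctps2 had a ratio of -1.62, -1.34, -1.40, -1.40 and -1.71 in the GFP high libraries, against -0.92, -0.83, -0.53, -0.66 and -0.52 in the GFP low libraries. The difference of the mean log2 ratios, GFP high minus GFP low, was -0.80 (exact permutation test, p = 0.00794, adjusted p = 0.0139), again with separate groups. For Impdh2/Impdh1 and Ctps/Ctps2 too, the ranges of the single genes fixed the separation of the ratios. Their p-values therefore add nothing to the results of the single genes. In these 4 pairs every GFP high ratio lay below every GFP low ratio. The gene given first was thereby bound to be lower relative to its partner in all 5 numbered pairs of libraries.

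The other pairs differed less or in the other direction. For Prps1/Prps2 the difference of the mean log2 ratios, GFP high minus GFP low, was -0.03 (exact permutation test, p = 0.81, adjusted p = 0.81), and it turned positive, at 0.01 to 0.05, without GFP high library 4 or 5 or GFP low library 1. For Shmt2/Shmt1 the difference of the mean log2 ratios, GFP high minus GFP low, was 0.23 (exact permutation test, p = 0.0397, adjusted p = 0.0463), so that the ratio tilted to the mitochondrial form in GFP high; the adjusted p lay between 0.0926 and 0.13 without GFP high library 1, 3 or 4 or GFP low library 2, 3, 4 or 5. For Nme1/Nme2 the difference of the mean log2 ratios, GFP high minus GFP low, was -0.57 (exact permutation test, p = 0.0317, adjusted p = 0.0444), and the adjusted p was between 0.0556 and 0.0778 without GFP high library 3 or GFP low library 2, 3, 4 or 5. Nme2 was measured at 1.75, 1.57, 2.17, 1.64 and 2.34 CPM in the GFP high libraries, against 2.73, 1.56, 1.94, 1.65 and 2.03 CPM in the GFP low libraries. The groups overlapped, and 54.5% of the 50-base words of the principal Nme2 transcript also occur in other annotated transcripts, mostly the read-through gene Gm20390, which was listed at 0 in every library. Its log2 fold change was -0.06 ± 0.30 (SE, adjusted p = 0.896).

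**Figure D4:**
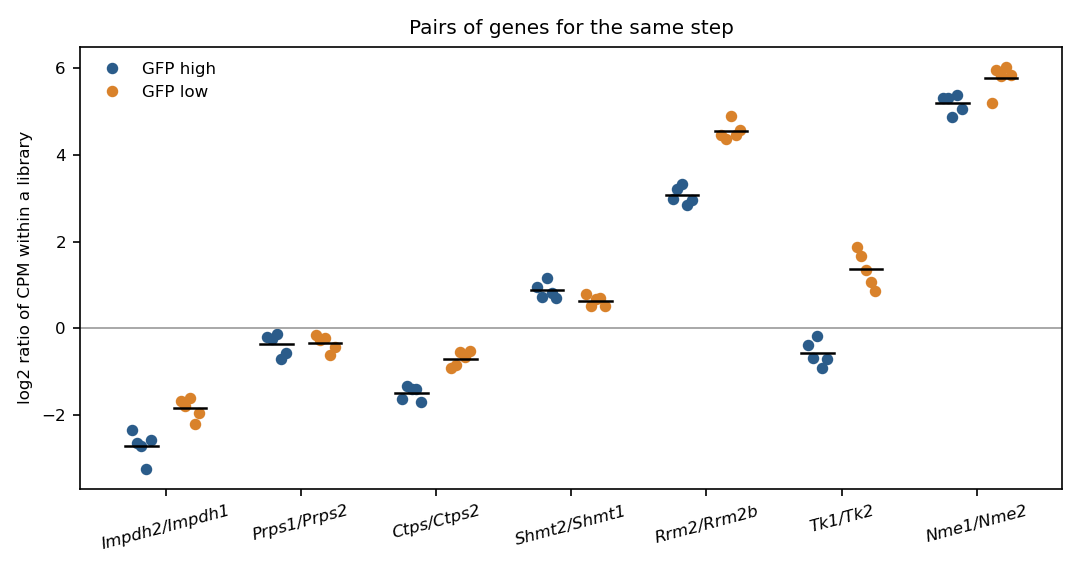
Log2 ratio of CPM between both genes of a pair within each library, GFP high left and GFP low right of each pair, with points for libraries 1 to 5 in order and a line at the mean. Tk1/Tk2 lies below 0 in the GFP high libraries and above 0 in the GFP low ones, and Prps1/Prps2 overlaps. CPM were not scaled to transcript length.

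Levels were compared between genes as mean CPM per kilobase of the principal transcript. Hprt stood highest of the 40, at 249.6 per kilobase in GFP high and 402 in GFP low cells. Rrm2 had 174 per kilobase in GFP high, the 4th highest level, and 386 in GFP low, the 2nd highest, while Rrm2b had 10.05 in GFP high and 7.95 in GFP low. Impdh1 stood above Impdh2 in both groups, at 244 against 52.3 per kilobase in GFP high and 206 against 79.6 in GFP low. Of the 50-base words of the principal Impdh2 transcript, 73.9% also occur in its pseudogene copy, against none for Impdh1. How such reads were counted is not stated, so the order of Impdh1 and Impdh2 is uncertain. Ctps2 stood above Ctps in both groups, at 43.6 against 19.1 in GFP high and 41.1 against 31.4 in GFP low. Tk1 and Tk2 were at 32.6 and 29.5 per kilobase in GFP high and at 70.8 and 16.6 in GFP low; with the merged length of all exons, Tk2 stood above Tk1 in GFP high, at 19.9 against 9.03, and below it in GFP low, at 11.2 against 19.6.

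Reads shared with similar genes limit some of these values. The words of 50 bases of the principal transcript that also occur elsewhere made up 73.9% for Impdh2, all through its pseudogene copy Impdh2-ps, which held 14 to 284 counts per GFP high library and 36 to 203 per GFP low library. For Prps1 the share was 10.1%, through Prps1l3, which held 781 to 1305 counts per GFP high library and 1061 to 1256 per GFP low library, with a fold change of -0.09 on the log2 scale (adjusted p = 0.541). For Tyms, Rrm2b, Nme1, Gart and Paics it lay between 11% and 14.2%, and for Tk2, Rrm1, Mthfd1 and Mthfd2 it was 0. How reads with several matches were counted, and whether counting used strand, are not stated by those sources.

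The pathways around these enzymes were described by another 88 genes, of which 62 had enough counts to test. Of these, 24 fell and 3 rose, and 35 did not pass, with a median log2 fold change of -0.15. Among all genes tested, 15.4% fell and 12.0% rose. With the replicate block, 26 of the surrounding genes fell and 6 rose, against 21.0% and 20.7% of all genes tested. Serine and glycine supply had 5 of 7 tested genes lower and 1 higher, the methionine cycle 2 of 5 lower and 1 higher, and folate uptake and turnover 1 of 11 lower. Purine salvage and breakdown had 5 of 13 lower, pyrimidine salvage and breakdown 2 of 7, deoxynucleotide cleansing 3 of 6 and other nucleotide kinases 5 of 9, with none higher in any of these lists. Nucleoside transport had 1 of 4 lower and 1 higher. The lists are short, and none was compared with the shares of all genes by a test.

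Phgdh and Psat1 carry the opening steps of serine synthesis from glycolysis. Levels of Phgdh were 106, 83, 80.7, 107 and 113 CPM in the GFP high libraries, against 153, 167, 199.5, 192 and 202 CPM in the GFP low libraries. Psat1 had 103, 98.5, 81, 98.6 and 111 CPM in GFP high, against 175, 214, 225, 226 and 198 CPM in GFP low libraries. Both were lower in every GFP high library. Phgdh had a log2 fold change of -0.90 ± 0.12 (SE, adjusted p = 0.0002), and Psat1 had a log2 fold change of -1.08 ± 0.10 (SE, adjusted p = 2.14e-05). Psph, which completes the route to serine, ranged from 29.1 to 43.5 CPM across GFP high libraries and from 45.4 to 54.4 CPM across GFP low libraries, also without overlap, with a log2 fold change of -0.44 ± 0.11 (SE, adjusted p = 0.013). Ahcy, which clears the product of methylation reactions, had the lowest fold change of the 62 genes. It ranged from 15.3 to 22.9 CPM across GFP high libraries and from 30.5 to 43.2 CPM across GFP low libraries, and its log2 fold change was -1.10 ± 0.15 (SE, adjusted p = 0.000248). Ada, the adenosine deaminase of purine breakdown, ranged from 21.5 to 31.3 CPM across GFP high libraries and from 41.4 to 63.7 CPM across GFP low libraries, with a log2 fold change of -1.01 ± 0.14 (SE, adjusted p = 0.0003).

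The 3 genes that rose included 2 carriers. Slc28a2, a sodium-coupled transporter of purine nucleosides, was higher in GFP high in every library. Slc28a2 was measured at 114, 109, 111, 134 and 125 CPM in the GFP high libraries, against 60.3, 41.3, 46.6, 55.6 and 43.9 CPM in the GFP low libraries. The log2 fold change was 1.26 ± 0.12 (SE, adjusted p = 1.72e-05). Slc1a5, a carrier of neutral amino acids such as glutamine and serine, was higher too. Levels of Slc1a5 were 754, 689, 1118, 606 and 650.4 CPM in the GFP high libraries, against 447, 437, 496, 389 and 437 CPM in the GFP low libraries. GFP high library 3 stood far above the others, all GFP high libraries lay above all GFP low ones, and the log2 fold change was 0.79 ± 0.15 (SE, adjusted p = 0.00188). Mat2b, the regulatory subunit of methionine adenosyltransferase, ranged from 259 to 284 CPM across GFP high libraries and from 199 to 231 CPM across GFP low libraries, with a log2 fold change of 0.32 ± 0.07 (SE, adjusted p = 0.00491).

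**Figure D5:**
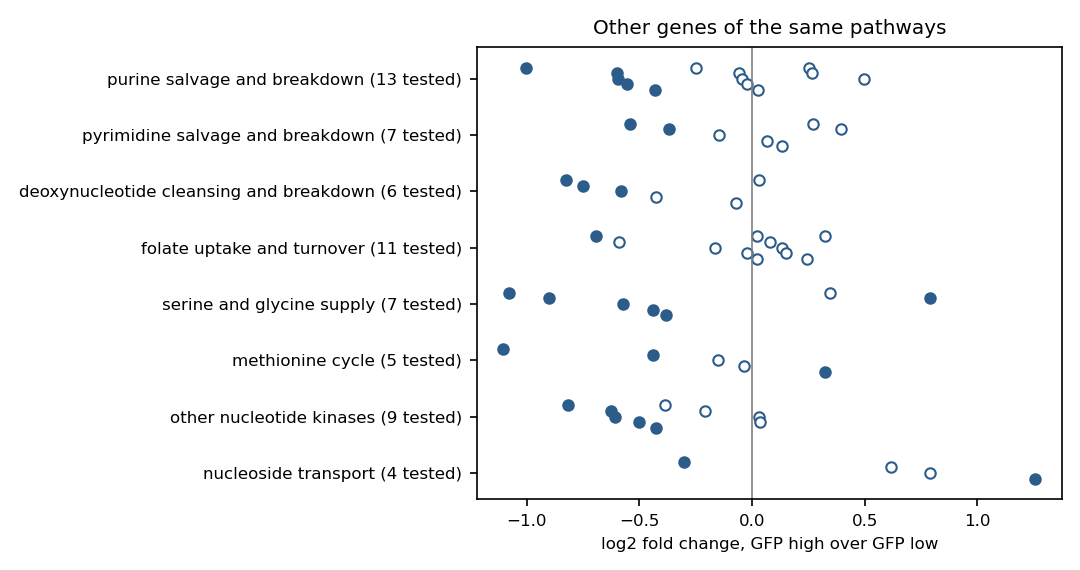
Log2 fold change, GFP high over GFP low, of the 62 tested genes of the surrounding pathways, 1 line per list. Filled points passed an adjusted p of 0.05 and open points did not; Slc28a2 lies farthest right at 1.26 and Ahcy farthest left at -1.10.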

How the data were processed

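Polyadenylated RNA was measured in 10 libraries, 5 GFP high and 5 GFP low, made with the SMART-Seq v4 low-input kit, per the labels' protocols. The authors deposited 1 table of whole-number read counts per Ensembl gene, with no normalization. Per the submitters' processing notes, STAR, featureCounts and DESeq2 were used with the build mm10, and versions, strand setting and the handling of reads with several matches are left unstated there. Libraries were assigned to groups and replicate numbers by their titles. Symbols came from GENCODE M21 on GRCm38, which matched 99.833% of 55573 identifiers; the 93 others held 4219 of 129994434 counts. Replicates were separate libraries (lowest chi-square per gene between 2 of a group 7.33), and since nothing says that they came from separate mice, p-values measure the spread between libraries.

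The test was run in edgeR 4.0.16 (R 4.3.3), with filterByExpr, TMM scaling (factors 0.965 to 1.03) and the quasi-likelihood fit without covariates, on the whole table, with Benjamini-Hochberg adjustment over 12772 genes. The SE of a log2 fold change was derived as its absolute value divided by the square root of the quasi-likelihood F statistic. The code was tested on simulated data. The common biological coefficient of variation was 0.249. A floor of 3 counts is 0.202 to 0.282 CPM and covers counting error only. Isozyme ratios used log2 CPM with a prior count of 2. Alternatives were DESeq2 1.42.0 as a test and as size factors, upper quartile factors, other filters, a replicate block and left-out libraries. Same-numbered libraries deviated together over all genes tested (r from 0.248 to 0.353), each correlating best with its own number. The numbers were therefore taken to pair the samples in the replicate block and in the sign-flip test. The main fit and the permutation test of the ratios did not use this pairing. Libraries 4 and 5 also stood apart from 1 to 3 in both groups, a split that the labels do not describe; both subsets were added as alternatives after seeing the data.

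The members and lists were chosen with earlier results of these data known. Values in every library were given for the 3 members with the lowest p in each role, for isozyme pairs and for members that rose, and up to 4 other pathway genes per direction were named, with Phgdh always; Psph was added after its values were seen. A gene of the surrounding pathways is not reported here. Protein sequences were not used here.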

Additional observations from a re-analysis of the deposited data

Results flagged for a closer look

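Each group of 5 libraries was searched, over 108 groups of values, for a highest or lowest library far from the rest, and 5 were found; chance gives about 1 in 20 groups. GFP high library 3 had 1118 CPM of Slc1a5, where the other GFP high libraries had 606 to 754. GFP high library 5 had 22.9 CPM of Ahcy, where the others had 15.3 to 16.2. GFP low library 4 had 132.6 CPM of Impdh2, where the others had 150.3 to 154. The same library had 28.6 CPM of Dhodh, where the others had 33.5 to 35.4. GFP low library 1 had a Nme1/Nme2 log2 ratio of 5.20, where the others had 5.83 to 6.03. Slc1a5, Ahcy and Impdh2 still did not overlap between the groups.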

How the results depend on the processing

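Of the 27 members that passed the threshold, 23 passed it under all 19 alternatives, and Adsl, Cad, Samhd1 and Dck were lost under at least 1. The median of the members lay between -0.60 and -0.50 under every alternative, and that of all genes between 0.02 and 0.08. With the replicate block, 4 members were higher, among them 1 of the AMP and GMP branches and 2 of deoxynucleotide supply, 2 nucleotide kinases were lower, and 6 other pathway genes and 2645 of all genes were higher. With no filter on low counts, 1 member and 0 deoxynucleotide genes were higher. Without both libraries numbered 3, these counts were again 1 and 0, and 926 of 12816 genes tested were higher. In that fit the ratios of Shmt2/Shmt1 and Nme1/Nme2 differed by 0.17 and -0.48 (exact permutation test, both adjusted p = 0.133). In libraries 1 to 3 alone, 1 gene of the AMP and GMP branches and 5 other pathway genes were higher. In libraries 4 and 5 alone, 2 nucleotide kinases were lower. The cause of these changes was not tested. With no filter and in both subsets, the share of all genes called is not given here, so these counts have no background beside them.

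Leaving out 1 library at a time, 1 to 2 members were higher, 0 to 1 deoxynucleotide genes were higher, 1 to 2 nucleotide kinases were lower and 3 to 5 other pathway genes were higher. The share of all genes called in each of these fits is not given here, so the counts are not read against it. Across the same fits the difference in ratio was 0.16 to 0.28 for Shmt2/Shmt1, -0.72 to -0.50 for Nme1/Nme2 and -0.10 to 0.050 for Prps1/Prps2, and the log2 fold change was -0.17 to 0.12 for Dctd, -0.074 to 0.14 for Mtap and -0.14 to 0.075 for Nme2. In libraries 1 to 3 alone, signs turned for Pfas (0.031), Ctps2 (-0.0083), Dctd (0.11), Mtap (-0.034) and Prps1/Prps2 (0.025), and in libraries 4 and 5 alone for Nme2 (0.088); none of these had passed the threshold. The stricter filter tested 38 members, without Dctd and Nme2. With the libraries paired by number, an exact sign-flip test of the ratios cannot go below p = 0.0625 and says nothing about them.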
